A study of Homo sapiens with 15 samples.

Results

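The comparison set 3 arrays of MCF-10A cells overexpressing ΔNp63α against 3 arrays of the same cells with the vector control. These are 6 of the 15 arrays of the series, chosen by their labels alone, and no measured value entered the choice. MCF-10A is an immortalized, non-tumorigenic human mammary epithelial line. All groups used here were MCF-10A cells whose total RNA was taken 48 h after retroviral or adenoviral infection. The sources used here do not state which virus carried the overexpression constructs. The other isoform of the overexpression arm, TAp63γ (3 arrays), entered the same fit and served as a direct comparison. A separate knockdown arm held 2 arrays each of an shRNA vector, of shDBD, an shRNA directed at every p63 isoform, and of an shRNA against isoforms with the transactivating domain, which was not analysed here. Of 22277 probe sets on the array, 19064 carried a single gene symbol, and they stood for 11963 genes.

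p63, a relative of p53 that binds DNA and controls transcription, marks the basal layer of stratified and glandular epithelia. Its gene gives rise to proteins with and without an N-terminal transactivation domain. ΔNp63α lacks that domain, is the main form in basal epithelial cells, and is known both to activate genes of basal cell identity and to compete with other p53 family members on DNA. TAp63γ carries the domain and has a short C-terminal end. The level of the introduced transcript itself was not analysed here, so the label of each array was not checked against it.

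A level below is a deposited log2 value, and a change is the ΔNp63α mean minus the vector mean on that scale, ± SE of the limma fit, with n = 3 arrays in each group. A gene was called when its Benjamini-Hochberg adjusted p over all 19064 probe sets was below 0.05. The replicates are labelled biological, but no label says whether each came from its own infection. The p-values therefore measure the spread between these arrays, which may be technical. RMA, which the submitters name, gives all arrays like distributions, so a shift of all genes together would not be seen. Array medians in the overexpression arm lay between 6.951 and 6.983. ΔNp63α replicate 3 stood somewhat apart. The median SD over genes was 0.0966 within the vector group and 0.11 within the ΔNp63α group. From fewer arrays, it was 0.102 without ΔNp63α replicate 1, 0.106 without replicate 2 and 0.0596 without replicate 3. That array also had the largest 3′ minus 5′ difference of the GAPDH control probe sets (0.141). Its actin difference (0.231) lay above those of ΔNp63α replicates 1 and 2 (0.123 and 0.134) and near that of vector replicate 1 (0.235). The mean actin difference was 0.163 ± 0.0594 (SD, n = 3) with ΔNp63α and 0.17 ± 0.0579 with vector. Whether RNA quality contributed to any change was not tested. Without ΔNp63α replicate 3 the fit called 1221 genes up and 1529 down.

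With ΔNp63α, 1186 genes rose (9.91% of 11963) and 1563 fell (13.1%). Each count given below for a gene list stands beside these shares, and several lists lay near them. At the level of probe sets, 4109 were called, or 21.6% of those tested. Falls outnumbered rises, but the large changes were nearly all rises. At least 2-fold changes were seen in 251 genes that rose and 81 that fell, at least 4-fold in 64 and 3, and at least 16-fold in 13 and 1. The median change was 0.57 among genes that rose and −0.49 among those that fell. With cyclic loess normalization the balance turned, with 1436 genes higher and 1246 lower, so that 53.5% of calls were rises instead of 43.1%. The arrays of both groups did not overlap for 4366 genes (36.5%), and 2715 of the 2749 called genes were among them. Of the 64 genes that rose at least 4-fold, 29 belonged to the lists of interferon effectors, interferon sensing and signalling, or MHC class I presentation. None of the 81 genes that fell at least 2-fold did. Those lists hold only 40, 24 and 16 of the 11963 genes, so an absence among 81 genes says little. In none of the 63 lists used here stood 60 of these 81 genes, and 128 of the 251 that rose at least 2-fold. The share of all genes in no list is not given here.

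**Figure D1:**
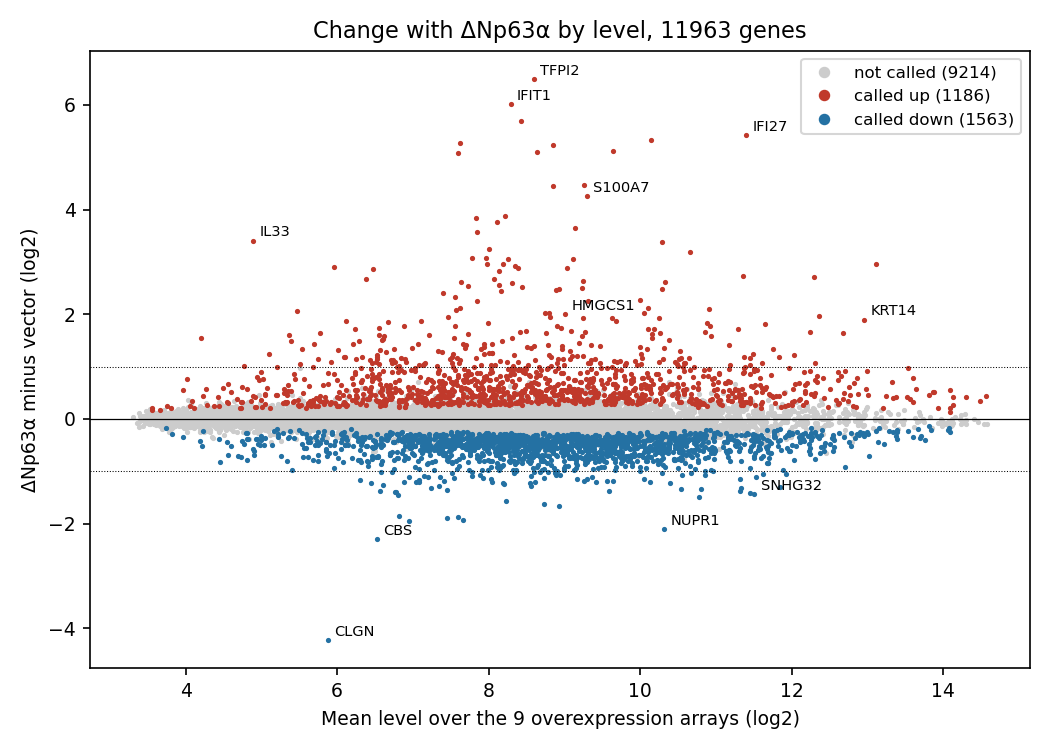
Change with ΔNp63α (ΔNp63α mean minus vector mean, log2) against the mean level over the 9 overexpression arrays (log2) for 11963 genes. Red points are the 1186 genes called up, blue points the 1563 called down and grey points those not called; dotted lines mark a 2-fold change. The red cloud reaches 6.5 (TFPI2), while below −2.3 (CBS) only CLGN is seen.

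Calls were more frequent among genes with higher levels. With genes split into 5 bins of equal size by mean level, 2.97% rose and 1.84% fell in the lowest bin, and in the highest bin 15.7% rose and 23.3% fell. RMA compresses differences at low levels, so changes of genes near background are understated.

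Of the 63 lists, genes induced by interferon had the highest median change. Interferons are secreted proteins that signal through JAK kinases and STAT and IRF factors. Some of the genes they induce encode proteins that recognise, trap or degrade viral RNA. Of 40 measured interferon effector genes, 40 rose and 0 fell, with a median change of 2.41 and a range from 0.48 to 6.02, beside a median of −0.005 over all genes. Averaged over the 40 genes, the level was 7.36, 7.43 and 7.45 on the vector arrays and 10.06, 10.06 and 9.9 on the ΔNp63α arrays. These genes include many of the largest changes on the array, and the list was drawn up with that known, so its count is a description.

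IFIT1, which binds viral RNA lacking a host cap, read 4.61, 5.37 and 5.31 with vector and 11.17, 11.24 and 10.94 with ΔNp63α. The groups lay far apart, and the change was 6.02 ± 0.18, or 65.1-fold (adjusted p = 4.94e-09). ISG15, a ubiquitin-like modifier attached to proteins in the interferon response, read 7.48, 7.16 and 7.42 against 12.52, 12.59 and 12.95, a change of 5.34 ± 0.16. IFI27, a mitochondrial interferon-induced protein, went from 7.86, 7.97 and 7.89 to 13.38, 13.42 and 13.2, with little spread in either group (5.43 ± 0.077, 43.1-fold). IFI44 rose by 5.69 ± 0.1 and IFI44L, its neighbour in the genome, by 5.11 ± 0.088. The transmembrane restriction factor IFITM1 rose by 5.12 ± 0.11, with levels of 7.19, 7.3 and 7.54 against 12.57, 12.43 and 12.39. OAS2, which makes the second messenger that activates RNase L, read 4.65, 5 and 4.97 with vector, below the 20th percentile of those arrays, and 10.32, 10.11 and 9.47 with ΔNp63α. Its change of 5.09 ± 0.19 was 4.76 when low values were floored at that percentile. The antiviral GTPase MX1 rose by 3.87 ± 0.13. DDX60, a helicase that assists RNA sensing, read 7.28, 6.53 and 7.04 against 11.14, 11.33 and 11.76, so the lowest ΔNp63α array lay well above the highest vector array.

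**Figure D2:**
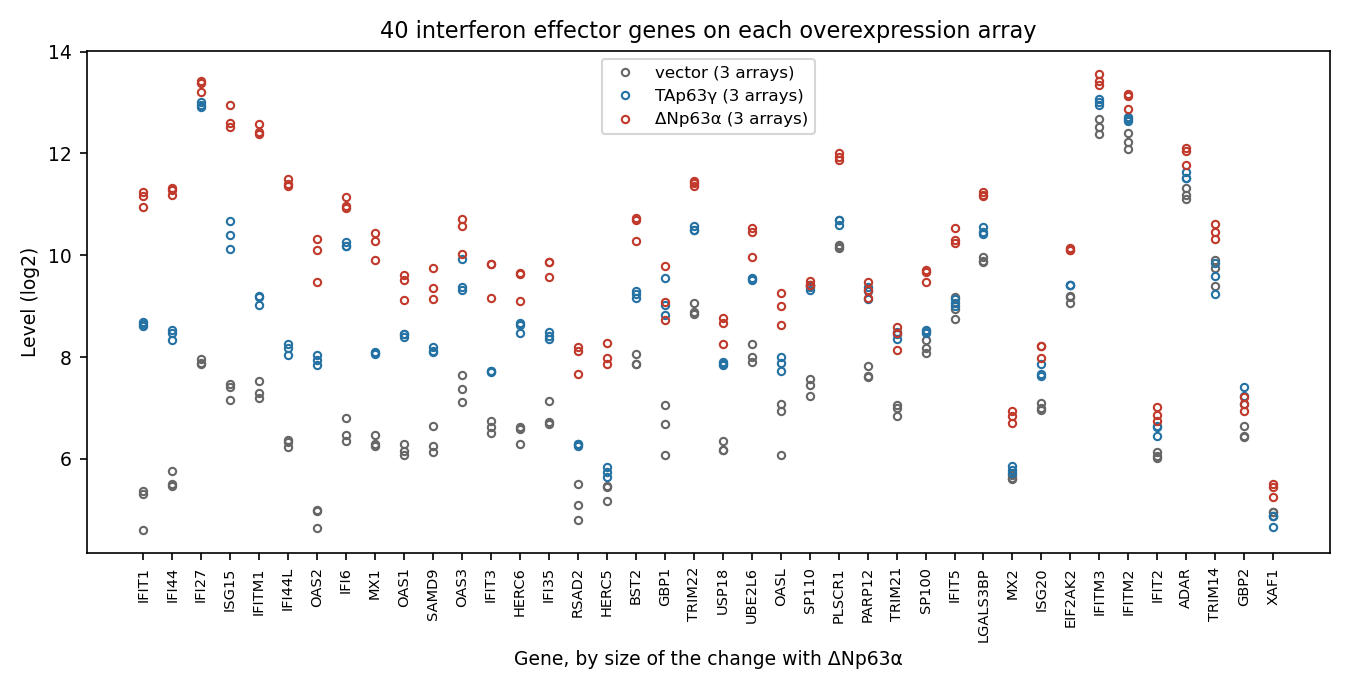
Level (log2) of 40 interferon effector genes on each vector (grey), TAp63γ (blue) and ΔNp63α (red) array, 3 arrays per group, ordered by the size of the change with ΔNp63α. All 40 rose with ΔNp63α, from IFIT1 (6.02) down to XAF1 (0.48), and 35 were higher with ΔNp63α than with TAp63γ.

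The sensors and transcription factors upstream of these genes changed as well, though less evenly. Of 24 measured genes of interferon sensing and signalling, 10 rose and 2 fell. RIGI, the cytosolic sensor of viral RNA, read 6.23, 6.14 and 5.85 with vector and 9.91, 9.9 and 9.93 with ΔNp63α (3.84 ± 0.11). The related sensor IFIH1 rose by 2.52 ± 0.18. Among the factors that drive interferon genes, IRF7 rose by 3.06 ± 0.11 and IRF9, the DNA-binding partner of STAT proteins, by 2.51 ± 0.094 (7.7, 7.66 and 7.67 against 10.33, 10.2 and 10.02). The kinase TYK2 (0.4, adjusted p = 0.0562) and the factor STAT3 (0.02 ± 0.11, adjusted p = 0.944) did not pass. The interferon genes IFNB1 and IFNA1, named here after their values were seen, did not pass either. IFNB1 read 5.12, 4.93 and 4.93 with vector and 5.05, 5.01 and 5.31 with ΔNp63α, and the vector arrays were below the 20th percentile of all probe sets.

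Among genes of MHC class I presentation, which display peptides from inside the cell, 13 of 16 rose and 1 fell, with a median change of 1.01. PSMB9, an immunoproteasome subunit, read 6.19, 6.24 and 6.28 with vector and 9.03, 8.95 and 8.56 with ΔNp63α (2.61 ± 0.13). The class I heavy chains HLA-B (1.96 ± 0.066), HLA-F and HLA-C (1.65 ± 0.06) rose too, but they are near-identical in sequence and probes may cross-hybridise between them. ERAP1, a peptide trimming enzyme, and TAP2, a subunit of the peptide transporter, did not pass (0.32 and −0.01), and their groups overlapped. None of the 10 measured MHC class II genes was called (HLA-DQB1 0, HLA-DMB −0.02). Class II display is known mainly, though not only, from professional antigen-presenting cells.

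Promoter windows of the interferon effectors were searched for the core letters of the interferon-stimulated response element, the site bound by complexes of STAT and IRF9 and by IRF factors. The sequences came from RefSeq (GRCh38.p14), each from 250 bases before to 50 after an annotated start, and a gene was counted when any of its windows held the letters GAAANNGAAA on either strand. Of the 40 effectors, 32 had an entry, and 24 of these 32 (75.0%) held the letters, against 395 of 9563 measured genes (4.13%) and 1195 of all 27305 genes of the table (4.38%). Among the 64 genes that rose at least 4-fold, 21 of the 54 with an entry held them (38.9%), and among those that fell at least 2-fold 4 of 63 (6.35%). Stretches of 6 promoters are shown as examples, picked from genes that rose at least 4-fold and had a single annotated window with a match. IFITM1, IFI44L, SAMD9, OAS3 and HERC5 were also such genes and are not shown. TFPI2, RIGI, OAS1 and HERC6 rose as strongly, with a single window and 0 matches before the start. Shown are IFIT1 (chr10:89392490-89392559, plus strand), ISG15 (chr1:1013360-1013429, plus), IFI6 (chr1:27672246-27672315, minus), DDX60 (chr4:168318766-168318835, minus), BST2 (chr19:17405715-17405784, minus) and IFIH1 (chr2:162318685-162318735, minus). Each is written 5′ to 3′ on the strand of its gene, lies before the start, and has in capitals the match nearest to the start. The windows held 2 or 3 matches each before the start, some of them overlapping:
IFIT1: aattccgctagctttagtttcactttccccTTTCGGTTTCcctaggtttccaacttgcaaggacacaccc
ISG15: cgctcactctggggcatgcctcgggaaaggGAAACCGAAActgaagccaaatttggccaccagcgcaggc
IFI6: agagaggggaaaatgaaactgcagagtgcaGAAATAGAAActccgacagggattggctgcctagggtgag
DDX60: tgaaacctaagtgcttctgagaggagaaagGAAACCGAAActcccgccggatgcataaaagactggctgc
BST2: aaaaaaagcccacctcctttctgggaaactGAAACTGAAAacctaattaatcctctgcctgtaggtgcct
IFIH1: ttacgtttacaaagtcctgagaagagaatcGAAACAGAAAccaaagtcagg
The match in IFIT1 is the reverse complement of the letters searched, and the other 5 read in the forward direction. The match of IFIH1 also lay in a window of GCA, which encodes a calcium-binding protein and is read from the opposite strand. GCA, named for that reason, rose by 2.07 ± 0.23. A match describes these letters only and says nothing of what was bound in these cells. The effectors were listed as genes induced by interferon, so their share describes the list and not an effect of ΔNp63α.

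Along the chromosomes, 6 runs of at least 3 neighbouring measured genes all rose at least 2-fold, and no run fell. They were IFIT3, IFIT1 and IFIT5 on chromosome 10, OAS1, OAS3 and OAS2 on chromosome 12, PSMB8, TAP1 and PSMB9 in the MHC region on chromosome 6, ABCG2, HERC6 and HERC5 on chromosome 4, S100A9, S100A12, S100A8 and S100A7 on chromosome 1, and SERPINB13, SERPINB4 and SERPINB3 on chromosome 18. Most of these runs are families of related genes. In the run on chromosome 4 the drug transporter ABCG2 (1.08 ± 0.099) adjoins the ubiquitin ligase genes HERC6 and HERC5, to which it is not related.

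Inflammatory signals made up another large set of rises. Of 15 measured chemokines, 9 rose and 0 fell, and of 23 interleukins, their receptors and colony-stimulating factors, 15 rose and 0 fell. CXCL14, a chemokine of epithelia, read 5.59, 5.56 and 5.38 with vector and 10.62, 10.47 and 11.12 with ΔNp63α (5.23 ± 0.17, 37.6-fold). The neutrophil attractants CXCL8 (3.38 ± 0.17) and CXCL1 (2.61 ± 0.092) rose, as did CCL20, which attracts dendritic cells and lymphocytes (2.11 ± 0.14). CX3CL1 and CXCL12 did not pass.

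IL33, an alarmin stored in epithelial nuclei, read 3.7, 3.66 and 3.68 with vector, at the bottom of the range of the arrays, and 6.73, 7.03 and 7.51 with ΔNp63α. The change was 3.41 ± 0.15, and 1.89 with low values floored at the 20th percentile. With TAp63γ it read 3.89, 3.9 and 3.92, and the direct difference between the isoforms was 3.19 (adjusted p = 1.92e-07). Other members of the interleukin-1 family rose without setting ΔNp63α above TAp63γ: IL36G by 2.67 ± 0.2, the receptor antagonist IL1RN by 2.08 ± 0.13 and IL1B by 1.67 ± 0.094. IL36G read 5.61, 4.66 and 5.53 with vector, 7.95, 7.97 and 7.88 with ΔNp63α and 10.97 to 11.06 with TAp63γ.

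NF-kB is a transcription factor family known to drive many inflammatory genes, and its own feedback inhibitors are among its targets. Its part in the rises seen here was not tested. Of 19 NF-kB subunits and feedback genes, 12 rose and 1 fell, with a median change of 0.59. TNFAIP3, a ubiquitin-editing inhibitor of the pathway, read 8.43, 8.15 and 8.39 with vector and 10.15, 10.09 and 10.34 with ΔNp63α (1.87 ± 0.1). The inhibitor NFKBIA rose by 0.98 ± 0.11 and the adhesion molecule ICAM1 by 1.08 ± 0.12, while the subunits RELA (0.18) and NFKB1 (0.14) did not pass. The letters GGNNTTTCC, taken for an NF-kB site, were held by 11 of 15 promoters of this list (73.3%), against 844 of 9563 measured genes (8.83%). Those letters can overlap the interferon letters, since both can contain TTTC, and the 15 genes had 28 windows. The list was made of NF-kB pathway genes, changed or not, so the share describes the list and not an effect of ΔNp63α. In the complement list 4 of 11 rose and 1 fell, with factor B (CFB) at 1.63 ± 0.14. Among death receptors, ligands and caspases, 3 of 15 rose and 1 fell: the death ligand TNFSF10 rose by 2.55 ± 0.11, the inhibitor CFLAR by 1.15 ± 0.083 and the inflammatory caspase CASP1 by 1.1 ± 0.085, whereas the decoy receptor TNFRSF10D fell by 1.21 on the log2 scale. In the BCL2 family 3 of 13 rose and 2 fell. The falls, HRK (−0.40) and BCL2L1 (−0.31), numbered 0 with the replicate block and without ΔNp63α replicate 2, vector replicate 2 or vector replicate 3, and 1 without ΔNp63α replicate 1 or 3. HRK also lost its call with the 6 compared arrays alone (adjusted p = 0.0529) and BCL2L1 under cyclic loess (0.0829). The other BCL2L1 probe sets were called in the same direction with larger falls, −0.87 and −0.81. BCL2A1 (1.02 ± 0.065) was below the 20th percentile on all arrays of both groups, and its change was 0.03 and not called when floored.

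TFPI2 had the largest change of all genes in the deposited values. It encodes a secreted inhibitor of plasmin and other serine proteases of the matrix. Its levels were 4.03, 4.31 and 4.41 with vector and 10.7, 10.61 and 10.93 with ΔNp63α, a change of 6.5 ± 0.12, or 90.5-fold (adjusted p = 1.86e-10). The vector levels lay below the 20th percentile, and with flooring the change was 5.55, below those of IFIT1 (5.83) and IFI44 (5.69). Of 11 genes of plasminogen activation and coagulation, 7 rose and 1 fell. PLAU, the urokinase that activates plasminogen, read 8.33, 8.42 and 8.29 against 10.7, 10.73 and 10.45 (2.28 ± 0.092), and the protease inhibitor SERPINE2 rose by 1.22 ± 0.079. TFPI, the inhibitor of tissue factor and a relative of TFPI2, fell by 0.89 on the log2 scale.

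Matrix metalloproteases moved in few members. Of 20 metalloproteases and TIMP inhibitors, 3 rose and 2 fell. Interstitial collagenase MMP1 read 3.83, 4.03 and 4.14 with vector and 9.03, 9.25 and 9.54 with ΔNp63α (5.27 ± 0.15, and 4.07 floored). The stromelysin MMP10 rose by 3.57 ± 0.11, from 4.56, 4.93 and 4.91 to 8.37 on each of the 3 ΔNp63α arrays. Exactly equal values on the 3 ΔNp63α arrays were found for 73 genes and on the 3 vector arrays for 77. The inhibitor TIMP3 fell by 1.2 (10.34, 10.77 and 10.33 against 9.43, 9.29 and 9.12). Among 23 collagens, COL7A1, which anchors the basement membrane, had the largest rise (1.03 ± 0.11), and 3 rose and 1 fell in all. LOXL1, a cross-linking enzyme of elastic fibres, fell by 1.37 on the log2 scale and ECM2, a matrix proteoglycan-like protein, by 1.95.

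Genes of squamous differentiation rose in part. They encode the proteins that keratinocytes lay down as they leave the basal layer. Of 30 measured, 13 rose and 1 fell, with a median change of 0.16. PI3, the elastase inhibitor elafin, rose by 2.73 ± 0.15 and the cornified envelope precursors SPRR1B and SPRR1A by 1.82 ± 0.13 and 1.58 ± 0.16. SPRR1B read 9.94, 10.34 and 10.1 with vector and 12.12, 12.02 and 11.69 with ΔNp63α. Involucrin (IVL) rose by 0.3 ± 0.081, with levels of 6.4, 6.37 and 6.37 against 6.68, 6.71 and 6.64, while it stood at 9.22 to 9.45 with TAp63γ. Its call was lost with the replicate block (adjusted p = 0.0558) and without any single one of vector replicates 1, 2 and 3 and ΔNp63α replicates 1 and 2 (0.0567 to 0.0786). The differentiation regulator ZNF750 rose by 1.09 ± 0.13 from below the 20th percentile, and was not called when floored (0.09). The plakin PPL and SCEL, another envelope protein, did not pass.

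S100 proteins and clade B serpins, which lie in clusters and are induced in stressed epithelium, followed. S100A7 read 5.24, 5.92 and 5.61 with vector, 10, 9.9 and 9.65 with ΔNp63α and 12.37 to 12.52 with TAp63γ. Its change with ΔNp63α was 4.26 ± 0.16, or 19.2-fold. S100A8 and S100A9, the subunits of calprotectin, rose by 2.96 ± 0.079 and 2.72 ± 0.093, and S100A12 by 1.72 ± 0.1. In all 7 of 16 S100 genes rose and 1 fell. Of 9 serpins of clade B, 7 rose and 0 fell, led by SERPINB3 (6.04, 6.07 and 6.39 against 9.06, 9.06 and 9.01). SERPINB3 and SERPINB4 are close paralogs, and SERPINB4 (1.33 ± 0.13) lost its call when floored (0.23).

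Keratins moved in both directions. KRT14, the partner of KRT5 in basal cells, rose by 1.9 ± 0.11, from 11.38, 11.87 and 11.63 to 13.58, 13.61 and 13.39. KRT18 and KRT7, keratins of simple epithelium, fell by 0.78 and 0.71 on the log2 scale. The basal keratin KRT15 fell by 0.69, and KRT23 rose by 1.31 ± 0.12. In all 3 of 11 keratins rose and 4 fell. Of 15 basal mammary markers 7 rose and 2 fell, and of 22 luminal markers 1 rose and 4 fell. The basal count was 4 without ΔNp63α replicate 2 and also 4 without vector replicate 3. Among lineage factors, 2 of 17 rose (11.8%) and 0 fell. SOX9 read 5.62, 6.08 and 5.92 with vector and 7.83, 7.81 and 7.81 with ΔNp63α (1.94 ± 0.12), and EHF rose by 1.44 ± 0.095. TFAP2A and KLF5 did not pass.

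Cell junction genes moved in both directions. Of 11 tight junction genes 4 fell and 1 rose, with OCLN (−0.86 ± 0.084) and CLDN7 (−0.79 ± 0.11) among those that fell. E-cadherin (CDH1) read 11.45, 11.42 and 11.38 with vector and 10.65, 10.62 and 10.56 with ΔNp63α, a fall of 0.8 on the log2 scale with no overlap. VIM, an intermediate filament of mesenchymal cells, did not pass (0.03 ± 0.091). Of 13 desmosome genes, 1 rose and 1 fell (7.69% each). Among 6 genes of hemidesmosomes and their laminin, which tie basal cells to the basement membrane, 3 rose: LAMB3 (0.62 ± 0.13), ITGA6 (0.48 ± 0.15) and DST (0.37). The arrays overlapped for ITGA6, its call was lost on flooring (adjusted p = 0.0691) among other settings, and DST was not called as the mean of its probe sets. ITGB4 did not pass. The collagen receptor subunit ITGA2 rose by 0.87 ± 0.079.

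Growth factor genes moved in both directions. FGFBP1, which releases fibroblast growth factors from the matrix, read 9.01, 8.91 and 9.06 with vector and 12.24, 12.17 and 12.14 with ΔNp63α (3.19 ± 0.073, 9.12-fold). The receptor FGFR3 read 7.88, 7.97 and 7.88 against 10.05, 9.8 and 9.7 (1.94 ± 0.1), and the ERK phosphatase DUSP6, a feedback gene of this pathway, rose by 1.06 ± 0.1. FGF2 itself fell by 1.15 on the log2 scale. Of 11 receptors, ligands and regulators of the EGF family, 4 rose and 2 fell. The ligands NRG1 (1.6 ± 0.19) and EREG (1.59 ± 0.24) rose, the ligand BTC did not pass (−0.01), and the receptor EGFR fell by 0.59 (11.27, 11.84 and 11.44 against 11.16, 11.04 and 10.58). The EGFR call was lost under cyclic loess (adjusted p = 0.0525), on flooring (0.0515) and with the 6 compared arrays alone (0.0713). It was also lost without any single one of vector replicates 2 and 3, ΔNp63α replicates 2 and 3 and TAp63γ replicate 3, with a highest adjusted p of 0.113. INHBA, the activin A subunit, rose by 3.76 ± 0.19 together with its antagonist FST (1.36 ± 0.11), and SMAD3, which carries the signal, rose by 1.35 ± 0.15. In the activin and TGF-beta list 8 of 19 rose and 4 fell. FOS, an immediate early factor, rose by 1.92 ± 0.078, and JUND, one of its partners, fell by 0.9 on the log2 scale. In the Notch, BMP and Wnt lists 2 genes rose and 1 fell, of 15, of 14 and of 22, respectively. The shares that rose were 13.3%, 14.3% and 9.09%, near the 9.91% of all genes. Among the Wnt genes the inhibitor DKK1 rose by 1.15 ± 0.11.

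AQP3, a glycerol and water channel of basal keratinocytes, read 6.77, 6.65 and 6.56 with vector and 10.39, 10.4 and 10.17 with ΔNp63α, a change of 3.65 ± 0.096. The other AQP3 probe sets were called in the same direction with smaller changes, 0.83 and 1.2. PTGS2, the inducible cyclooxygenase, rose by 2.83 ± 0.23 and the phospholipase PLA2G4A, which supplies it with substrate, by 1.26 ± 0.18. PTGES, which makes prostaglandin E from the cyclooxygenase product, fell by 0.85 on the log2 scale.

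Of 35 genes of replication origins and forks, 24 rose and 2 fell, with a median change of 0.49. GINS1, a subunit of the replicative helicase, read 7.83, 7.67 and 7.84 with vector and 9.2, 9.08 and 9.26 with ΔNp63α (1.4 ± 0.094). The polymerase subunit POLE2 rose by 1.27 ± 0.11, the initiation factor MCM10 by 1.17 ± 0.071 and the single-strand binding subunit RPA3 by 1.05 ± 0.083. MCM7 did not pass, and its groups overlapped. The E2F letters TTTGGCGC or TTTCCCGC were found for 15 of 31 of these genes with a promoter entry (48.4%), against 397 of 9563 measured genes (4.15%). That share covers the list's members, changed or not, and does not describe an effect of ΔNp63α. CCNE2, a cyclin that opens S phase, rose by 1.58 ± 0.29, and 6 of 17 G1 cyclins and CDK inhibitors rose with 0 falls. The CDK inhibitor CDKN1A did not pass (−0.05 ± 0.15).

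Of 39 mitosis genes, 16 rose and 0 fell, with a median of 0.3 and a highest change of 0.89. The checkpoint kinase BUB1 read 8.22, 8.08 and 8.12 against 8.94, 8.98 and 9.13 (0.88 ± 0.086). KIF11, the kinesin that separates spindle poles, rose by 0.88 ± 0.093 and the spindle protein DLGAP5 by 0.89 ± 0.15. In bulk RNA, more cells in a phase of the cycle and more RNA per cell cannot be told apart, and the same holds for every list of cell type or state here.

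Of 18 genes of nucleotide synthesis, 5 rose and 9 fell. TK1 (0.91 ± 0.086) and RRM2 (0.83 ± 0.098), which supply deoxynucleotides, rose, whereas the purine enzymes IMPDH2 and ADSL fell by 1.06 and 1 on the log2 scale. IMPDH2 read 12.04, 12.44 and 12.18 with vector and 11.46, 11.34 and 10.67 with ΔNp63α, replicate 3 being the lowest.

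Of 22 genes of sterol and fatty acid synthesis, 12 rose and 1 fell, with a median change of 0.46. HMGCS1, which starts the mevalonate pathway, read 8.08, 7.38 and 7.77 with vector and 9.48, 9.68 and 10.07 with ΔNp63α (2 ± 0.2, 4-fold). INSIG1, a sterol-regulated brake on the pathway, rose by 1.66 ± 0.22, squalene epoxidase (SQLE) by 1.18 ± 0.086 and IDI1, an isoprenoid isomerase, by 1.17 ± 0.08. DHCR7, which makes cholesterol in the last step, did not pass (0.37). The letters TCACNCCAC of a sterol regulatory element were found for 1 of 20 of these genes (5.0%), against 143 of 9563 (1.5%). Among 30 genes of glycolysis and hypoxia 7 rose and 4 fell, with ANGPTL4, a lipoprotein lipase inhibitor, at 1.92 ± 0.095 and the peptide hormone ADM at 1.39 ± 0.091.

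**Figure D3:**
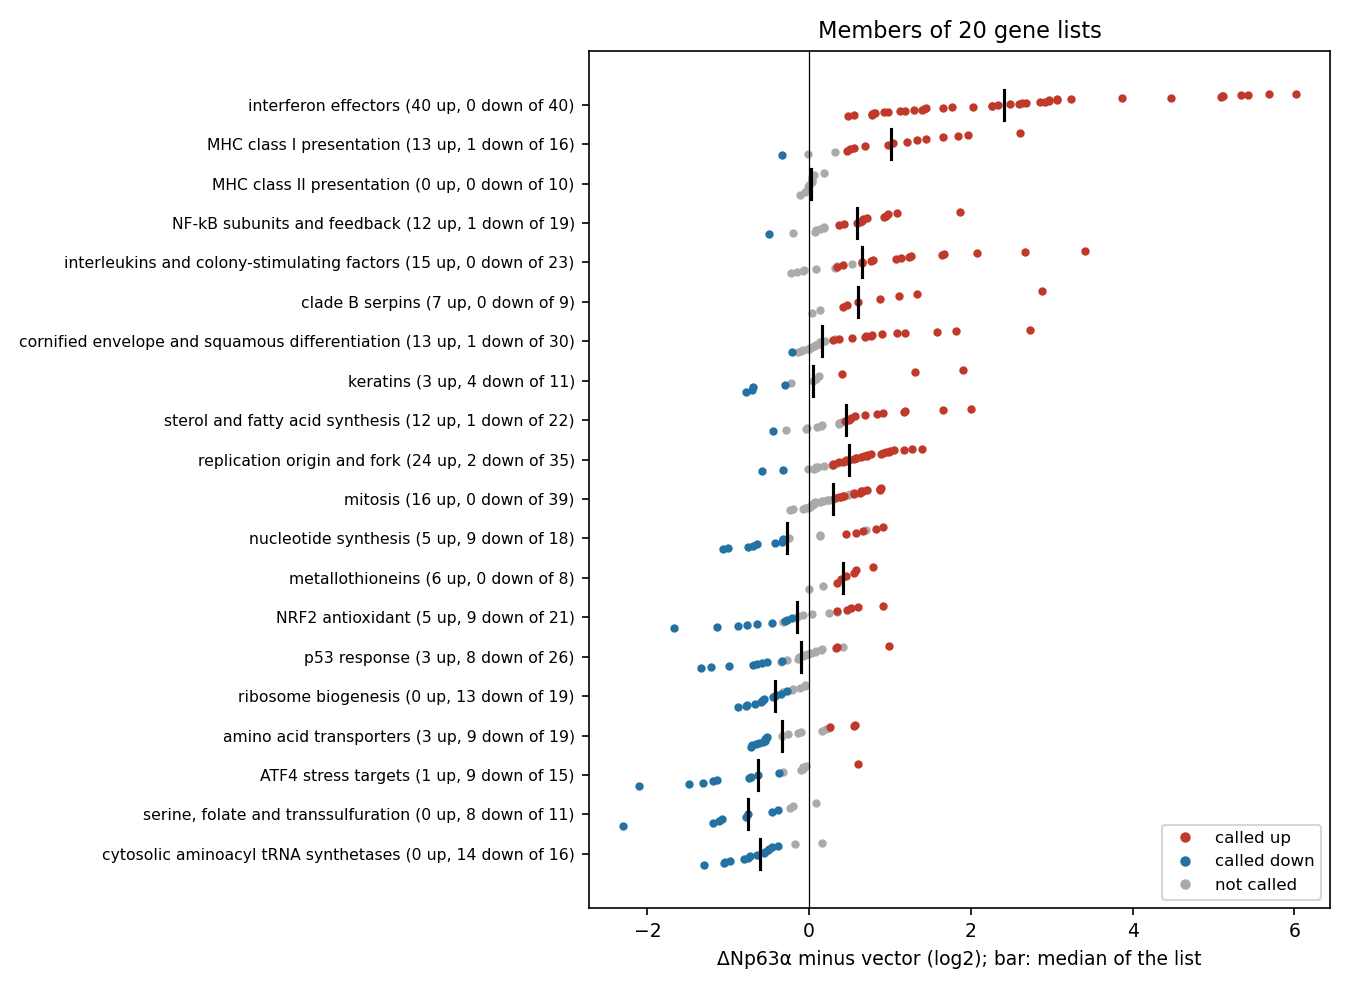
Change with ΔNp63α (log2) of each measured member of 20 of the 63 gene lists; red points were called up, blue points down, grey points not called, and the black bar is the list's median. Interferon effectors lie entirely to the right of 0 (median 2.41), while tRNA synthetases (median −0.61) and serine pathway genes (median −0.75) lie mostly to the left.

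Cells short of amino acids or with a stressed endoplasmic reticulum raise the factor ATF4, whose targets make and import amino acids and charge tRNAs. Of 16 cytosolic aminoacyl tRNA synthetases 14 fell and 0 rose (median −0.61), of 11 serine, folate and transsulfuration genes 8 fell and 0 rose (−0.75), of 15 ATF4 stress targets 9 fell and 1 rose (−0.63), and of 19 amino acid transporters 9 fell and 3 rose (−0.33). Each share stands beside 13.1% of all genes that fell.

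CBS, which joins homocysteine and serine in transsulfuration, read 8.06, 8.46 and 8.11 with vector and 6.07, 6.03 and 5.62 with ΔNp63α (−2.30 ± 0.15, 4.93-fold lower). PHGDH, which opens serine synthesis, fell by 1.19 on the log2 scale, SHMT2, which feeds mitochondrial folate, by 1.11 and PSAT1, the next serine enzyme, by 1.08. SHMT2 read 12.55, 12.36 and 12.57 against 11.35, 11.38 and 11.43, with little spread in either group. MTHFD2 and MTHFD1 did not pass.

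NUPR1, a stress-induced chromatin protein, fell by 2.1 (11.07, 11.4 and 11.16 against 9.29, 9.29 and 8.76). The translation inhibitor EIF4EBP1 fell by 1.49 and asparagine synthetase (ASNS) by 1.31, with ASNS at 12.7, 12.8 and 12.7 with vector and 11.49, 11.48 and 11.28 with ΔNp63α. ATF4 mRNA itself did not pass (−0.08 ± 0.078, adjusted p = 0.546); ATF4 is known to be controlled mainly at translation. Among the synthetases SARS1 fell by 1.3, IARS1 by 1.05 and WARS1 by 1.04, and HARS1 and RARS1 did not pass. RARS1 was called higher (0.25, adjusted p = 0.042) under cyclic loess. SLC3A2, the shared heavy chain of amino acid exchangers, fell by 0.71 and the cystine importer SLC7A11 by 1.14 on the log2 scale. SLC7A11 read 12.02, 11.67 and 11.91 with vector, 10.6, 10.59 and 10.99 with ΔNp63α and 7.27, 7.88 and 7.52 with TAp63γ. ASS1, which makes the arginine precursor argininosuccinate, fell by 1.42 (12.05, 12.4 and 12.1 against 10.97, 10.92 and 10.4).

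Of 19 ribosome biogenesis genes 13 fell and 0 rose, with a median of −0.42, RRP9 (−0.88 ± 0.11) and PNO1 (−0.78 ± 0.093) leading, while NPM1 did not pass (−0.05 ± 0.064). Of 36 cytosolic ribosomal protein genes 9 fell and 1 rose. That lower count moved to 5 under cyclic loess, on flooring, with the 6 compared arrays alone, without any single TAp63γ array or without vector replicate 3, and to 4 without vector replicate 2. Of 25 proteasome genes 1 rose and 2 fell (4.0% and 8.0%), and of 33 spliceosome genes 4 rose and 2 fell (12.1% and 6.06%). Over all genes 9.91% rose and 13.1% fell. Of 20 endoplasmic reticulum chaperones 6 fell and 0 rose, SEL1L by 0.83. The small heat shock protein HSPB1 rose by 1.66 ± 0.076, in a list in which 6 of 17 rose and 3 fell, and 6 of 8 metallothioneins rose, MT1F by 0.79 ± 0.049. Metallothioneins are near-identical, so their probe sets may share signal.

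Genes of the p53 response, which arrest the cycle or promote cell death, moved in both directions. Of 26, 8 fell and 3 rose. GDF15, a stress cytokine, read 10.92, 11.2 and 11.03 with vector and 9.84, 9.73 and 9.56 with ΔNp63α (−1.34 ± 0.1). ZMAT3, an RNA-binding protein, fell by 1.21 and the quinone reductase TP53I3 by 0.99, and SUSD6 rose by 0.99 ± 0.084. CDKN1A and CCNG1 did not pass. Of 21 NRF2 antioxidant genes 9 fell and 5 rose, among them the conjugate exporter ABCC3 (−1.67 ± 0.095) and the peroxiredoxin PRDX1 (0.91 ± 0.069). Of 20 cytochrome P450 and aldehyde dehydrogenase genes 8 fell and 3 rose, with CYP1B1 at −1.01 ± 0.084 and ALDH1A3 at 1.03 ± 0.11. The 8 falls were 5 with low values floored or left out.

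The single largest fall was that of CLGN, a chaperone of the endoplasmic reticulum known from testis. It read 9.28, 8.45 and 8.96 with vector and 4.79, 4.36 and 4.87 with ΔNp63α, a change of −4.22 ± 0.19 (18.7-fold lower, adjusted p = 1.22e-07), or −3.67 with values floored. With TAp63γ it read 4, 4.09 and 4.1, so the vector arrays alone were high in this arm. NEBL, an actin-binding protein, fell by 1.93 (8.81, 8.65 and 8.67 against 6.91, 6.63 and 6.81). TCEA2 and TCEA1, transcript elongation factors, fell by 1.89 and 1.37 on the log2 scale. FYN, a kinase of the SRC family, fell by 1.88, with the widest spread of these genes on the ΔNp63α arrays (6.39, 6.82 and 5.79 against 8.26, 8.23 and 8.15). DNAJB6, a co-chaperone, fell by 1.56 and the membrane skeleton adaptor ANK2 by 1.86. SNHG32, a noncoding RNA that hosts small nucleolar RNAs, fell by 1.44, from 12.47, 12.5 and 12.56 to 11.15, 11.11 and 10.95. The other genes among the 20 largest falls were SEL1L3, ADGRG2, ZNF239, KCNG1 and IFRD1, at −1.63 to −1.37.

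**Figure D4:**
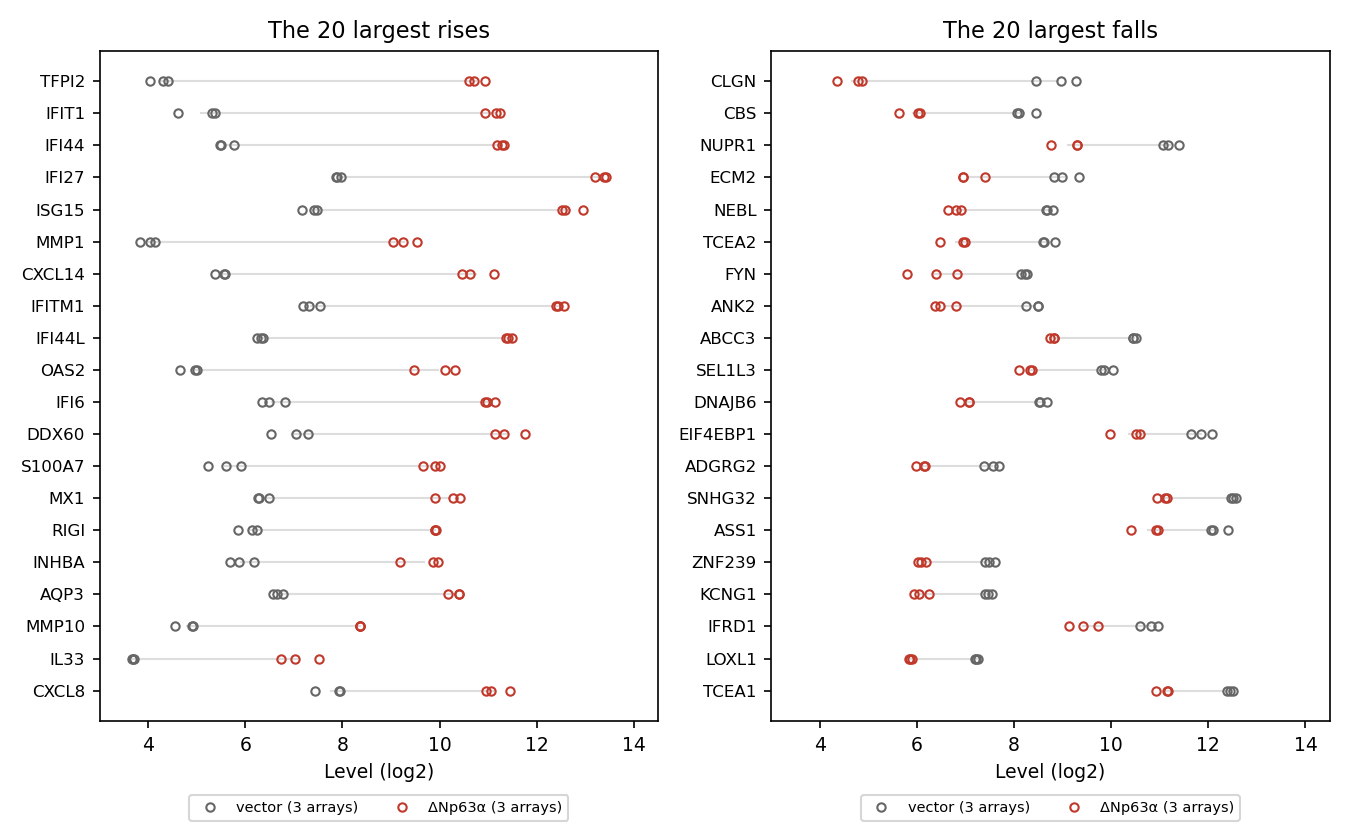
Level (log2) on each vector (grey) and ΔNp63α (red) array, 3 per group, for the 20 genes with the largest rises (left) and the 20 with the largest falls (right) among called genes with no overlap between the groups. Rises span 6.5 (TFPI2) to 3.38 (CXCL8) and falls −4.22 (CLGN) to −1.37 (TCEA1).

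The direct comparison with TAp63γ showed which of these changes differed between the isoforms. It called 4139 genes (34.6% of 11963), 2027 higher and 2112 lower with ΔNp63α. Of the 1186 genes that rose with ΔNp63α, 404 were higher than with TAp63γ, 357 were lower and 425 were not called. Of the 1563 that fell, 462 were lower than with TAp63γ, 330 were higher and 771 were not called. Both isoforms share the vector arrays, so the changes against vector are only set side by side.

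Against vector, interferon effectors had a median change of 2.41 with ΔNp63α and 1.47 with TAp63γ, and mitosis genes 0.3 and −0.61. For MHC class I presentation these medians were 1.01 and 0.97, and for NF-kB subunits and feedback 0.59 and 0.67. They were −0.61 and −1.03 for tRNA synthetases and −0.75 and −0.94 for serine, folate and transsulfuration genes. Interferon effectors and mitosis genes had the largest shares of members higher with ΔNp63α than with TAp63γ among the 63 lists, at 35 of 40 and 35 of 39. IFITM1 was higher by 3.33 (12.39 to 12.57 with ΔNp63α, 9.02 to 9.2 with TAp63γ), IFI44L by 3.27 and IFIT1 by 2.46. ASPM, a spindle pole protein, read 10.82, 10.39 and 10.66 with vector, 11.16, 11.04 and 11.64 with ΔNp63α and 8.19, 8.32 and 8.24 with TAp63γ, so it rose with the former isoform (0.66 ± 0.15) and the isoforms differed by 3.03. KIF14, a kinesin of cell division, differed by 2.49. Of the p53 response genes 20 of 26 were lower with ΔNp63α than with TAp63γ, and of the squamous genes 12 of 30. ΔNp63α minus TAp63γ was −3.97 for NSG1, an endosomal protein (adjusted p = 1.77e-08), −3.33 for the phosphatase subunit PPP2R2B, −3.11 for ZNF750, −3.07 for IL36G and −2.62 for TP53I3. TP53I3 was below vector with ΔNp63α (−0.99) and read 12.26 to 12.29 with TAp63γ against 10.6 to 10.7 with vector. TFPI2 (−0.04, adjusted p = 0.835), AQP3 (−0.10), MMP1 (−0.32) and KRT14 (−0.18) were not called between the isoforms.

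The shRNA directed at all p63 isoforms, shDBD, was compared with its own vector on other arrays, 2 per group, in a separate fit. The p63 level in these arrays was not analysed here. It called 3552 genes (29.7%), and 1340 genes were called in both comparisons. Of these, 772 moved in opposite directions, which is 28.1% of the ΔNp63α calls and 21.7% of the shDBD calls, and 568 moved in the same direction (20.7% and 16%). The Pearson correlation of both changes across 11963 genes, which are not independent, was −0.02. 
FGFR3 rose with ΔNp63α (1.94) and fell with shDBD (−1.90), and SPRR1B gave 1.82 and −1.90. The carbonic anhydrase CA12 (1.5 and −1.50), PLAU (2.28 and −1.40), FGFBP1 (3.19 and −1.20), MCM10 (1.17 and −1.30) and DTL, an adaptor of the ubiquitin ligase that clears replication factors (1.12 and −1.44), followed the same pattern. C1RL, a complement-like protease, and MSLN, a surface glycoprotein, went the other way (−1.20 and 1.53, −1.17 and 1.19). BUB1, KIF11 and DLGAP5 rose with ΔNp63α and fell by 2, 1.64 and 2.37 with shDBD. The amino acid lists had negative medians in both comparisons. With shDBD the median was −0.94 for ATF4 stress targets and −0.45 for serine, folate and transsulfuration genes. It was −0.43 for tRNA synthetases and −0.26 for amino acid transporters. Interferon effectors had a median of 0.21 with shDBD, and single genes of these lists differed. IFIT1 rose (6.02 and 2.83), as did ISG15 (5.34 and 1.37) and IFI27 (5.43 and 1.43), and CBS (−2.30 and −2.08), PHGDH (−1.19 and −2.75), ASNS (−1.31 and −2.02) and SLC7A11 (−1.14 and −3.25) fell. OAS2 (−0.02) and MX1 (0.12) did not pass with shDBD, and ASS1, which fell with ΔNp63α, rose with shDBD (0.57, adjusted p = 3.53e-05).

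**Figure D5:**
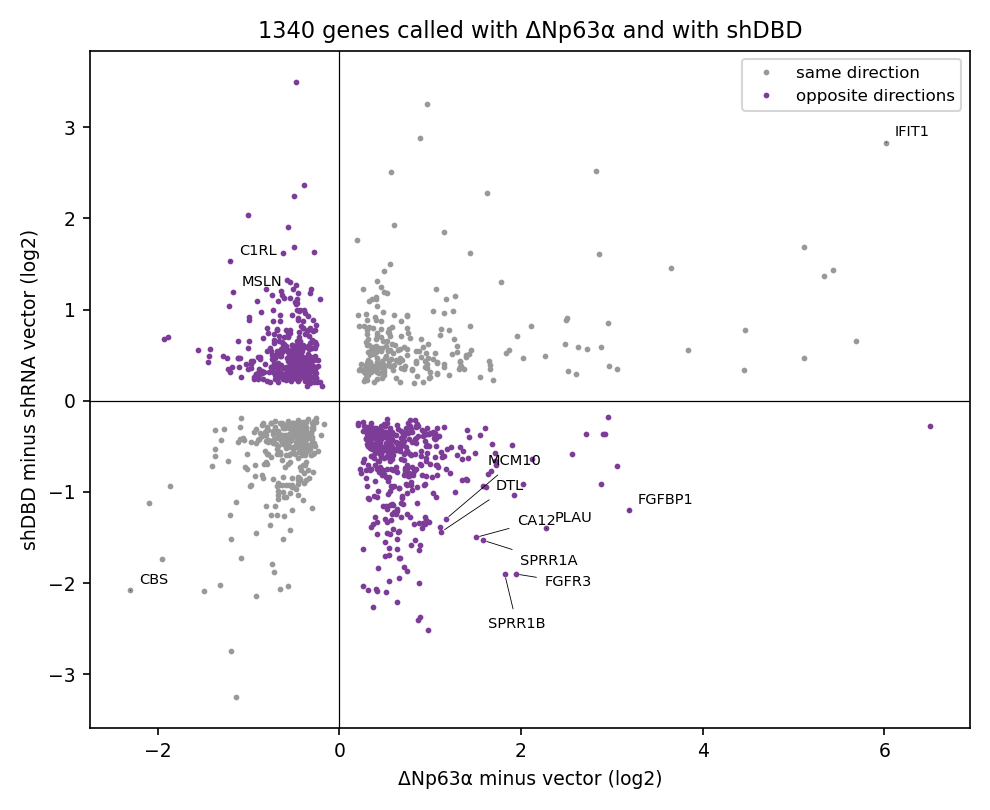
Change with ΔNp63α (log2, horizontal) against change with shDBD (log2, vertical) for the 1340 genes called in both comparisons; purple points moved in opposite directions (772 genes) and grey points in the same direction (568 genes). FGFR3 and SPRR1B stand low on the right, IFIT1 at the upper right and CBS at the lower left.

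Markers of cell types that a mammary culture could hold were also compared. On the vector arrays the defining basal genes KRT5, KRT14, ITGB4 and TRIM29 read between 11.31 and 12.87 as group means. Among luminal genes KRT18 and KRT7 were bright (12.51 and 13.24) but KRT19 and PGR were below the 20th percentile on all 6 arrays. The mean level over 14 leukocyte markers was 5.66 to 5.71 with vector and 5.7 to 5.71 with ΔNp63α, and 0 of them rose. CD14 alone was called (−0.48 ± 0.093). Over 17 fibroblast and mesenchymal markers the mean level was 6.45 to 6.55 with vector and 6.48 to 6.53 with ΔNp63α, with 1 up and 1 down, and over 13 endothelial and adipocyte markers 5.25 to 5.28 and 5.29 to 5.36, with 2 up (PECAM1 and FABP4) and 1 down (CIDEC). The fibroblast fall, DCN (−0.39), lost its call under cyclic loess (adjusted p = 0.145), quantile normalization (0.0871) and flooring (0.0526), among other settings. FABP4 lost its call on flooring. PECAM1 lost it with the replicate block and without any single vector array, ΔNp63α replicate 1 or 2 or TAp63γ replicate 3, among other settings. CIDEC lost it with the replicate block, with the 6 compared arrays alone and without any single vector array or ΔNp63α replicate 2 or 3.

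Of 4310 genes with more than 1 single-symbol probe set, the called ones had 1778 further probe sets, of which 940 were called in the same direction, 8 in the opposite direction and 830 not at all. For genes changed at least 2-fold, 172 of 210 further probe sets were called in the same direction and 0 in the opposite. The 8 exceptions were CNPY2, HNRNPD, PIGL, GGCX, SRSF7, CSNK1A1, ADCK2 and PLPBP. GGCX, the vitamin K-dependent carboxylase, gave 0.83 and −0.36 at its probe sets and CNPY2 −0.61 and 0.69, so a direction for these genes depends on the probe set. For some genes named above a further probe set was not called: FYN (−0.23 against −1.88), GDF15 (−0.04 against −1.34), ANK2 (0.11 against −1.86), CFB (−0.03 against 1.63), CA12 (0.2 against 1.5) and IFIH1 (0.36 against 2.52). NEBL, IL1RN, BUB1, NRG1, CFLAR and SERPINB13 each had at least 1 such probe set among several. For INHBA and OAS2 a further probe set was called in the same direction with a smaller change (0.42 against 3.76, and 2.29 against 5.09).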

How the data were processed

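Total RNA of MCF-10A cells was labelled with biotin and hybridized to Affymetrix arrays, per the labels' protocols. The deposited values are log2 expression per probe set, made by the authors with RMA per the submitters' processing notes. RMA settings and the genome build are not stated in the sources used here. The values of 19064 probe sets with a single symbol in GEO's platform annotation were fitted with limma 3.58.1 (R 4.3.3; variance trend on, no covariate) over the 9 overexpression arrays, which share 1 estimate of the spread. The 6 knockdown arrays were fitted separately. P-values were adjusted by Benjamini-Hochberg over all probe sets. A gene was read at its probe set with the highest mean level. The fit was tested on simulated data. Floored values are values raised to the array's 20th percentile.

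Named genes are the 20 largest changes each way among called genes with no overlap between the groups, from each of 63 lists at most 4 members called and 2 not called, and the 10 largest differences each way against TAp63γ or opposite with shDBD. Members and lists were chosen with earlier results of these data known. Promoter letters were searched in RefSeq windows. The introduced p63 transcript was not analysed here. Probe sets with several symbols (1043), none in that annotation (2108) or array controls (62) were left out.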

Additional observations from a re-analysis of the deposited data

How the results depend on the processing

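The counts of rises and falls stayed within 1.5 times of 1186 and 1563 under 21 alternatives, and no called gene was called in the opposite direction in any of them. All 15 arrays in a single fit gave 1427 up and 1922 down, the 6 compared arrays alone 1070 and 1316, and leaving out 1 array 914 to 1221 up and 1110 to 1571 down, lowest without vector replicate 3. Whether replicate numbers pair the arrays could not be told. Deviations of same-numbered vector and ΔNp63α arrays correlated at −0.63, 0.48 and 0.25, and not every array correlated best with its own number. Deviations from a mean of so few arrays constrain one another, so these correlations cannot settle it. With the replicate number as a block, 1001 genes rose and 1277 fell. Of 380 named genes 259 were called, and 221 of these kept direction and call throughout. The sign turned for CYP39A1 on flooring (0.03, adjusted p = 0.191, against −0.83) and for DST as the mean of its probe sets (−0.02, adjusted p = 0.876, against 0.37). Falls among oxidative phosphorylation genes numbered 8, and 5 without vector replicate 3. Over all lists and alternatives, 173 counts of falls and 71 of rises moved by over 1.5 times, and 1150 and 1252 did not; many of these counts were small. The cause was not tested. Low signal limits the folds of genes below the 20th percentile.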

Other observations

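The 2 arms carry separate vector controls, and some of the changed genes differed between these controls. Whether the arms were normalized together is not stated, so the levels are set side by side with no test, and the genes were chosen after their values were seen. CLGN averaged 8.9 with the overexpression vector, 4.67 with ΔNp63α and 4.03 with the shRNA vector. FGFBP1 averaged 8.99, 12.18 and 11.66 in the same order, and S100A7 5.59, 9.85 and 8.57.

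The comparison rests on 3 arrays per group, 1 cell line and 1 time point of 48 h. Levels of the introduced protein and of the endogenous gene were not analysed here, so the size of the overexpression relative to the cells' own p63 is unknown. Probe sets near background have compressed changes, and related genes can share signal.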
